A study of Homo sapiens with 12 samples.

Results

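The comparison described here sets THP-1 cells treated with THZ531 against THP-1 cells treated with YKL5124, without the vehicle. Libraries were assigned to it by the sample labels. It holds 6 of the 12 libraries of the study, 3 for each inhibitor. THP-1 is an established human acute myeloid leukaemia line that carries the MLL-AF9 fusion gene. Every group received its compound for 2 hours, with 1 mM 4-thiouridine (a nucleoside that marks newly made RNA) in the last 10 minutes, and each treatment used 1000000 cells. The libraries read the 3′ ends of polyadenylated RNA, and RNA of Drosophila S2 cells had been added at 5% as a spike-in. The labels give no dose for either compound and are silent on whether the replicates are independent cultures. The p-values therefore rest on library-to-library spread that may be technical. Total counts were analysed, so they hold RNA made before the treatment as well as RNA made during it.

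Both compounds are covalent inhibitors of kinases that act on RNA polymerase II. CDK7, the known target of YKL5124, is the kinase of the general transcription factor TFIIH and also activates cell cycle kinases. CDK12 and CDK13, the known targets of THZ531, pair with cyclin K, phosphorylate the tail of the polymerase during elongation and are known to keep long genes from ending early at polyadenylation sites inside introns. DNA repair genes are the best known genes that need CDK12. Because the vehicle is not part of the comparison, a difference below says how the 2 inhibitor groups differ and not which inhibitor moved the gene.

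The 6 libraries held 7772557 to 11269277 human counts after 1 row was kept for each gene. Log2 values correlated at 0.989 to 0.992 between replicates and at 0.920 to 0.923 between the groups, and no library stood apart. All 24 myeloid markers listed for the line had counts in at least 1 library. Their summed level was 1928 to 1972 CPM (counts scaled to a common library size) with THZ531 and 1560 to 1794 CPM with YKL5124, and 22 of them could be tested, of which 8 were higher with THZ531 and 2 lower. Of 23 markers of T, B, NK, erythroid, epithelial, fibroblast, endothelial and liver cells, 10 had no count in any of the 6 libraries. The 23 summed to 198 to 212 CPM with THZ531 and 218 to 225 CPM with YKL5124, nearly all of it from PECAM1, at a mean of 191 and 209 CPM. The part of these markers in the results was not tested.

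**Figure D1:**
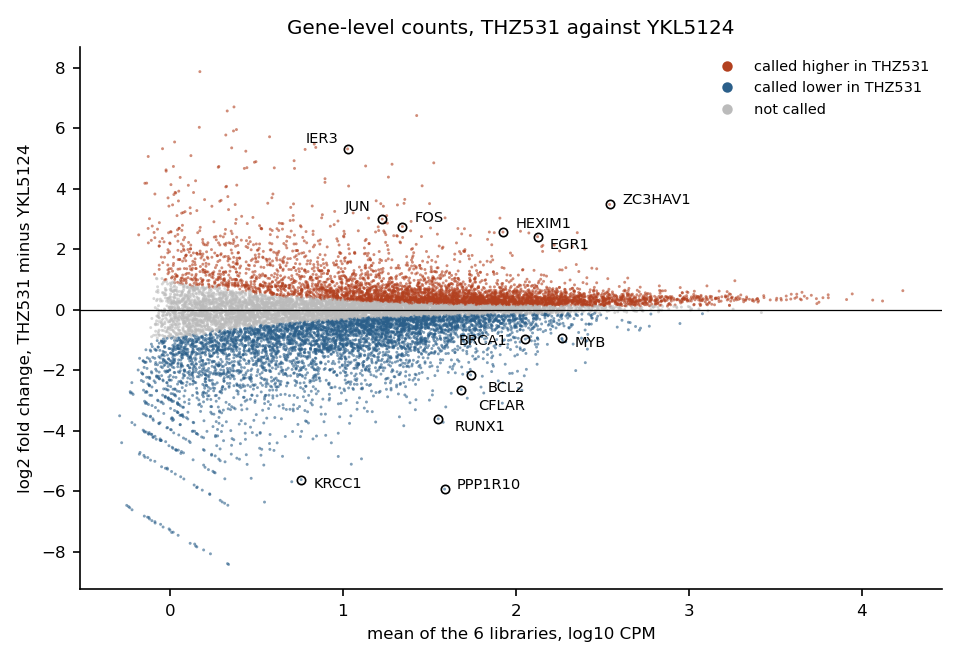
Each point is 1 of 14858 genes, with its mean level over the 6 libraries in log10 CPM on the x axis and its log2 fold change, THZ531 minus YKL5124, on the y axis. Red points were called higher with THZ531 (4400 genes), blue points lower (4901), grey points were not called, and the circled genes lie between -5.94 (PPP1R10) and 5.32 (IER3).

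Most genes that could be tested differed between the 2 inhibitors. Of 14858 genes, 9301 (62.6%) passed the threshold of 0.05 on the adjusted p of edgeR's quasi-likelihood test, 4400 (29.6%) with higher and 4901 (33.0%) with lower levels in the THZ531 libraries. Large differences were mostly in 1 direction. At least 2-fold lower were 2418 genes (16.3%), and at least 2-fold higher were 909 (6.12%). At 4-fold the counts were 866 lower and 286 higher. In 9754 genes (65.6%) all 3 libraries of 1 inhibitor lay above all 3 of the other, so groups without overlap were common. The median log2 fold change was -0.02. TMM scaling sets these values against the bulk of human genes. Scaled to the spike-in instead, the median moved to -0.26 and the calls to 2118 higher and 6763 lower, so that 23.8% of the calls were higher in place of 47.3%. With library size alone they were 2490 and 6640, with a median of -0.23. Over all named human rows and all fly rows, human counts were 28.6 to 31.4 times the fly counts. With 1 row per human gene and all fly rows, the ratio of human to fly counts was 8.65, 8.58 and 9.22 with THZ531 and 8.61, 8.99 and 9.33 with YKL5124. These values overlapped, and the means of the log2 ratio differed by -0.03 (exact two-sided permutation test, p = 0.6; 3 against 3 libraries cannot go below 0.1).

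The kinase genes themselves came first. CDK12 stood at 70.2, 66.2 and 63.2 CPM with THZ531 and at 68.7, 69.1 and 75.2 CPM with YKL5124. The groups overlapped, and the log2 fold change of -0.10 (95% interval -0.24 to 0.04, adjusted p = 0.227) did not pass. Scaled to the spike-in, CDK12 was lower with THZ531, at -0.34 (adjusted p = 0.000367). These values are for a row that ends upstream of another row of the gene. With its rows summed CDK12 was at -0.09. On its most downstream row, a retained-intron transcript at a mean of 0.171 against 8.63 CPM, it was at -5.48. CDK13, its closest relative, was at 13.5, 12 and 10.8 CPM against 36.0, 25.4 and 27.4 CPM. All THZ531 libraries lay below all YKL5124 libraries, a 2.43-fold difference (log2 fold change -1.28, SE 0.12, adjusted p = 7.27e-10). CCNK, which encodes their partner cyclin K, was higher by 0.31 (SE 0.08), a call lost with spike-in scaling (0.07, adjusted p = 0.503). CDK7 was higher with THZ531 by 0.78 (SE 0.20, adjusted p = 0.00165), at 4.86 to 7.09 CPM against 2.89 to 3.98 CPM. CDK9, the kinase that releases paused polymerase, was lower (-0.66, SE 0.17). Among 13 genes of the CDK12, CDK13 and CDK7 complexes, 4 (30.8%) were higher and 6 (46.2%) lower, against 29.6% and 33.0% over all genes. The TFIIH subunits GTF2H1 (-2.02, SE 0.13) and ERCC3 (-0.56, SE 0.07) were among the lower. With spike-in scaling the counts were 1 higher and 8 lower, and on the most downstream rows 2 and 8. Inhibition of a kinase need not change its own transcript, so these values check no label. POLR2A, the largest subunit of the polymerase, was higher by 0.58 (SE 0.05), and scaling to the spike-in left it at 0.34.

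Immediate-early genes were higher with THZ531 than with YKL5124. These are the genes that cells switch on within minutes of a signal, most of them encoding transcription factors, phosphatases and decay factors with short-lived mRNAs. JUN, which with FOS forms the factor AP-1, was at 30.0, 30.4 and 29.6 CPM with THZ531 and at 4.65, 3.24 and 3.56 CPM with YKL5124. Its partner FOS was at 38.5, 38.8 and 38.3 CPM against 5.73, 5.73 and 5.71 CPM, and the zinc finger factor EGR1 at 232, 223 and 221 CPM against 44.1, 39.4 and 43.3 CPM. In none of the 3 did the groups overlap, which also held for 65.6% of all genes tested. The differences were 7.98-fold for JUN (log2 fold change 3.00, SE 0.13, adjusted p = 3.47e-17), 6.72-fold for FOS (2.75, SE 0.11, adjusted p = 3.49e-18) and 5.33-fold for EGR1 (2.42, SE 0.07, adjusted p = 1.11e-21). IER3 had the largest difference of the list, at 18.9, 21.8 and 21.8 CPM against 0.477, 0.555 and 0.496 CPM. Of 57 immediate-early genes listed, 46 passed the filter on low counts. Of these, 41 were higher and 0 lower, and 5 did not pass the test (BTG2 at -0.49, FOSL1 at -0.34, PPP1R15A at -0.15, PLK3 at -0.10 and SERTAD3 at 0.33). The median of the 46 was 1.79, against -0.02 over all genes, and 32 were at least 2-fold higher. Genes with counts only where they are high pass the filter through that group, so the count describes these members and no others. With scaling to the spike-in the counts were 36 higher and 1 lower, with a median of 1.55. MYC, a growth regulator of the same list, was at 8.04, 9.39 and 8.61 CPM against 2.03, 2.50 and 2.15 CPM (log2 fold change 1.95, SE 0.19). PIM1, a kinase gene, differed 9.52-fold, at 15.8 to 16.7 CPM against 1.49 to 1.94 CPM.

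The bases just before the start of EGR1, FOS and JUN are shown, with those of HEXIM1, which is not on the immediate-early list. All 4 genes were higher with THZ531. The bases were taken from RefSeq (GRCh38.p14), and each line holds the 150 bases before the annotated start, 5′ to 3′ on the strand of the gene. Capitals mark matches to a set of motifs searched on both strands.
EGR1 (chr5:138465329-138465478, plus strand): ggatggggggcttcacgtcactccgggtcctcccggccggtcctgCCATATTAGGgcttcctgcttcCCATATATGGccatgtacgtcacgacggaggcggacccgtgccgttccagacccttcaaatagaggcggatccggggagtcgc
FOS (chr14:75278678-75278827, plus strand): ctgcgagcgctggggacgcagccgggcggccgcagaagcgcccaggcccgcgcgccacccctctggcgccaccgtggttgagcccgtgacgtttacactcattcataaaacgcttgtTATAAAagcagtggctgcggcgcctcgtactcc
JUN (chr1:58784048-58784197, minus strand): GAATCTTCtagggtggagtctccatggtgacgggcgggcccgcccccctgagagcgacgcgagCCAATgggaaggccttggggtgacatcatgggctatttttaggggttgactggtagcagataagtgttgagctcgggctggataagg
HEXIM1 (chr17:45148325-45148474, plus strand): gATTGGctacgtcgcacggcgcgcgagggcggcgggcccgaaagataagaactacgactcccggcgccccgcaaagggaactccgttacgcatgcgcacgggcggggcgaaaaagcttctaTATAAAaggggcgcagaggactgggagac
The motifs were the CArG box (a pair of matches before EGR1), the TATA box TATAAA (FOS and HEXIM1), the CCAAT box CCAAT (JUN, and on the other strand HEXIM1), the heat shock element GAANNTTC (JUN), the cyclic AMP response element TGACGTCA, the AP-1 site TGACTCA, the EGR site GCGTGGGCG, the ETS core CCGGAAG and the E-box CACGTG, none of which contains another. Over the 250 bases before the start, TATAAA stood in 5.12% of 9607 promoters matched by symbol to tested genes, in 9.50% of 484 of genes at least 2-fold higher and in 5.27% of 1557 of genes at least 2-fold lower. Among all 27305 promoters of the table it stood in 11.1%. CArG boxes stood in 0.989% of the tested, 1.86% of the higher and 0.899% of the lower genes (1.1% of all). CCAAT stood in 35.7%, 39.7% and 33.8% (33.0% of all), GAANNTTC in 4.00%, 5.37% and 3.73% (5.85% of all), and CCGGAAG in 17.1%, 11.6% and 16.4% (8.82% of all). A match is a string of letters in the window, not a bound site.

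**Figure D2:**
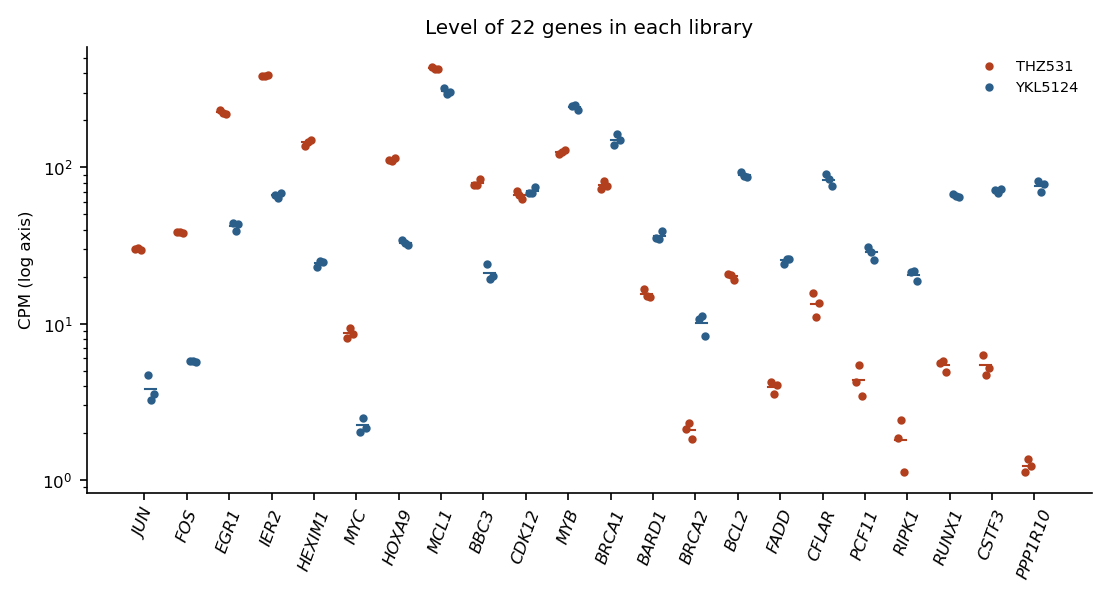
Levels of 22 genes in CPM on a log axis, 1 point for each library and a short line for the mean of 3, red for THZ531 and blue for YKL5124. Replicates lie close together and the groups are apart for every gene but CDK12, from JUN (29.6 to 30.4 against 3.24 to 4.65 CPM) to PPP1R10 (1.11 to 1.36 against 69.2 to 81.6 CPM).

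HEXIM1, the protein that holds the CDK9 complex P-TEFb inactive in the 7SK particle, was among the clearest differences. It was at 138, 145 and 150 CPM with THZ531 and at 22.9, 25.2 and 24.8 CPM with YKL5124, without overlap (5.93-fold, log2 fold change 2.57, SE 0.07, adjusted p = 2.38e-21). Its last exon overlaps HEXIM2-AS1, and the strand used in counting is not given. HEXIM2, its paralog, went the other way at -3.39 (SE 0.50), on 0.104 to 0.405 CPM against 1.43 to 2.98 CPM. The bromodomain gene BRD2 was higher (1.35, SE 0.06), whereas BRD3 was lower (-1.75, SE 0.06). The last exon of BRD3 overlaps BRD3OS. Of 19 genes of P-TEFb, 7SK and the super elongation complex, 9 (47.4%) were higher and 6 (31.6%) lower, with a median of -0.09. Over all genes the shares were 29.6% and 33.0%. With spike-in scaling 6 of the 19 were higher and 8 lower (median -0.33). Among 19 tested genes of NELF, DSIF, PAF1 and other elongation factors, 10 were higher, such as RTF1 (0.60, SE 0.07), and 1, SUPT6H, was lower (-0.40, SE 0.08). With scaling to the spike-in that list had 6 higher and 6 lower.

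Genes for 3′ end formation included some of the largest differences toward lower levels with THZ531. PPP1R10 encodes a scaffold of the phosphatase complex that acts on the polymerase at the ends of genes (also called PNUTS). It was at 1.11, 1.36 and 1.22 CPM with THZ531 and at 81.6, 69.2 and 78.4 CPM with YKL5124, with no overlap (61.2-fold lower, log2 fold change -5.94, SE 0.14, adjusted p = 1.09e-22). The sums behind it were 34 and 2380 counts. CSTF3, a subunit of the cleavage stimulation factor, was at 6.31, 4.69 and 5.16 CPM against 71.3, 68.2 and 72.8 CPM (13.2-fold lower). PCF11, a termination factor, was at 4.20, 5.42 and 3.44 CPM against 31.1, 28.8 and 25.7 CPM (6.50-fold lower), and RBBP6, a cleavage factor, differed 7.61-fold. Each of these stood lower in all 3 THZ531 libraries than in any YKL5124 library. These values are for 1 row of each gene. With all rows summed CSTF3 was at -1.23 and PCF11 at -0.97. The last exon of PCF11 overlaps ANKRD42-DT and PCF11-AS1. Other members were higher, such as SCAF8 (1.34, SE 0.09, last exon overlapping TIAM2) and CPSF6 (0.57, SE 0.07). In all, 12 of 28 cleavage and polyadenylation genes were lower, 8 of them at least 2-fold, and 11 were higher, with a median of -0.18 (16 lower and 7 higher with spike-in scaling). Integrator and Mediator, complexes that process snRNAs and bridge activators to the polymerase, had 20 of 46 subunits lower and 16 higher (24 and 11 with spike-in scaling). The shares were 42.9% lower and 39.3% higher for cleavage and polyadenylation, and 43.5% and 34.8% for Integrator and Mediator. Over all genes they were 33.0% and 29.6%. INTS7 (-1.88, SE 0.13) was among the lower and MED4 (1.15, SE 0.07) among the higher, and the whole list ran from -2.33 to 2.08.

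Homologous recombination and Fanconi anaemia genes, which repair double-strand breaks and crosslinks, were mostly lower with THZ531. BRCA1 was at 72.5, 81.7 and 76.1 CPM with THZ531 and at 140, 163 and 149 CPM with YKL5124. BRCA2 was at 2.10, 2.30 and 1.82 CPM against 10.6, 11.2 and 8.35 CPM, and the helicase gene BLM at 7.17, 8.76 and 8.71 CPM against 34.5, 34.7 and 35.7 CPM. No THZ531 library reached a YKL5124 library in these genes. The log2 fold changes were -0.97 (SE 0.07, adjusted p = 6e-13) for BRCA1, -2.26 (SE 0.20, adjusted p = 1.22e-10) for BRCA2 and -2.08 (SE 0.11, adjusted p = 1.32e-15) for BLM. BARD1, the partner of BRCA1, was lower 2.37-fold. Of 45 genes listed, 43 were tested, 27 were lower (16 at least 2-fold), 5 were higher and the median was -0.79. FANCA, a member of the core complex, stood out at 58.0, 61.8 and 55.4 CPM against 5.37, 4.90 and 5.13 CPM, on a row that ends upstream of the end of the gene. On its most downstream row FANCA was lower, at -0.91. RAD51C behaved likewise, at 0.59 (SE 0.10) on its chosen row and at -0.74 on the most downstream row. With the most downstream row of every gene, 29 members were lower and 4 higher.

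Checkpoint genes included both higher and lower members. The damage kinase ATM was at 10.4, 6.89 and 6.99 CPM against 17.3, 17.8 and 16.1 CPM (log2 fold change -1.09, SE 0.14), and ATRIP, the partner of ATR, was at -2.90 (SE 0.31). ATRIP rested on sums of 17 and 146 counts, and its last exon overlaps TREX1. CHEK1, an effector kinase, was instead at 24.1, 24.1 and 25.8 CPM against 8.59, 9.34 and 10.6 CPM (1.36, SE 0.11), and the ubiquitin ligase gene RNF168 was higher by 1.46 (SE 0.11). Of 25 tested, 10 (40%) were higher and 10 (40%) lower, with a median of 0.01. Over all genes the shares were 29.6% and 33.0%. With spike-in scaling 7 of the 25 were higher and 14 lower (median -0.22).

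Survival genes divided between lower and higher members. CFLAR, an inhibitor of caspase-8, was at 15.7, 11.1 and 13.5 CPM with THZ531 and at 90.7, 83.8 and 75.6 CPM with YKL5124 (6.23-fold lower, log2 fold change -2.64, SE 0.10). BCL2, which blocks mitochondrial death, was at 20.9, 20.3 and 18.9 CPM against 93.2, 88.3 and 87.2 CPM (4.47-fold lower, -2.16, SE 0.08). In both, every THZ531 library was below every YKL5124 library. These values are for 1 row of each gene. With all rows summed CFLAR was at -0.82 and BCL2 at -1.67. The death receptor adaptors RIPK1 and FADD were lower as well, 11.4-fold and 6.46-fold, RIPK1 at 1.11 to 2.40 CPM against 18.7 to 21.6 CPM and FADD at 3.55 to 4.20 CPM against 24.2 to 26.0 CPM. MCL1, another blocker of mitochondrial death, was higher by 0.49 (SE 0.05), at 426 to 438 CPM against 295 to 321 CPM, and with spike-in scaling by 0.25. Of the death-promoting genes of the BCL2 family, BBC3, BCL2L11 and PMAIP1 were higher, whereas BAX was lower (-0.30, SE 0.07). BCL2L13, another member of the family, was lower by more (-1.75, SE 0.10), at a mean of 12.2 against 41.3 CPM. BBC3 (PUMA) was at 77.0, 77.7 and 84.7 CPM against 24.2, 19.3 and 20.1 CPM, BCL2L11 (BIM) differed 3.37-fold and PMAIP1 (NOXA) 2.77-fold. The last exons of CFLAR, BCL2L11 and MCL1 overlap other tested genes. Of 22 tested death receptor and IAP genes, 15 were lower and 4 higher, with a median of -0.57. Of 17 tested BCL2 family genes, 9 were higher and 3 lower, with a median of 0.24, and with spike-in scaling 6 were higher and 6 lower.

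Transcription factors of the myeloid lineage were more often lower than higher. RUNX1, a factor required for blood formation, was at 5.56, 5.74 and 4.86 CPM with THZ531 and at 67.9, 65.2 and 64.7 CPM with YKL5124 (12.2-fold lower, log2 fold change -3.61, SE 0.10, adjusted p = 2.67e-21). FLI1 was 4.53-fold and IKZF1 3.37-fold lower. MYB, a proto-oncogene of immature blood cells, was at 122, 125 and 130 CPM against 246, 251 and 233 CPM (-0.95, SE 0.06). The groups were apart in each of these. GATA2, a factor of blood progenitors, was higher (1.12, SE 0.12). Of 23 tested, 13 were lower and 7 higher, with a median of -0.23. Genes of the MLL-AF9 programme went both ways. HOXA9 was at 111, 110 and 115 CPM against 34.4, 32.8 and 31.8 CPM (3.41-fold higher, log2 fold change 1.77, SE 0.07) and HOXA10 differed 2.40-fold. MEF2C (-1.59, SE 0.07) and PBX3 (-0.98, SE 0.06) were lower. The last exons of both HOXA genes overlap other tested genes. Of 25 tested genes of that programme, 10 (40%) were higher and 8 (32%) lower, against 29.6% and 33.0% over all genes. With spike-in scaling 9 were higher and 12 lower. MEIS1 had 0 to 2 counts in a library and was not tested. The sign of KMT2A and ZEB2 depended on the row. KMT2A was at 0.77 on its chosen row, at 0.40 with its rows summed and at -1.82 on the most downstream row, and ZEB2 at 2.09, 1.37 and -1.97.

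Stress lists held more higher than lower genes. Of 26 tested p53 targets, 13 were higher and 4 lower (median 0.40), with SESN2 at 1.76 (SE 0.09). CDKN1A and MDM2, 2 classical members, did not pass, at 0.03 (SE 0.15) and -0.0002 (SE 0.07). Of 21 tested NF-kB and inflammatory genes, 14 were higher and 3 lower (median 0.66). Its inhibitor NFKBIA was at 173, 187 and 166 CPM against 95.4, 97.2 and 92.9 CPM (0.88, SE 0.06), whereas NFKBIE was lower (-1.76, SE 0.13), as were the subunit genes REL (-0.74, SE 0.07) and RELB (-0.99, SE 0.10). Heat shock genes had 18 of 25 higher and 3 lower (median 0.33). HSPA1B (1.39, SE 0.08) was among the higher and the co-chaperone gene DNAJB6 (-1.03, SE 0.06) among the lower. Genes of the integrated stress and unfolded protein response had 19 of 32 higher and 5 lower (median 0.25). Among the latter, DDIT3 (CHOP) was at -1.22 (SE 0.13), with a last exon that overlaps MARS1. With spike-in scaling the medians of these 4 lists were 0.17, 0.42, 0.09 and 0.01, and the last list had 12 higher and 11 lower.

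Splicing regulators of the SR and CLK families were higher in 23 of 31 cases and lower in 2 (median 0.41). RSRP1 was at 223, 229 and 234 CPM against 60.5, 48.5 and 53 CPM (4.25-fold, SE 0.07 on the log2 scale), and LUC7L3 (1.30, SE 0.08) and PNISR (1.20, SE 0.07) followed. All 3 had higher values in every THZ531 library. CLK2, a kinase of SR proteins, was lower (-0.53, SE 0.11). With spike-in scaling 15 were higher and 6 lower.

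**Figure D3:**
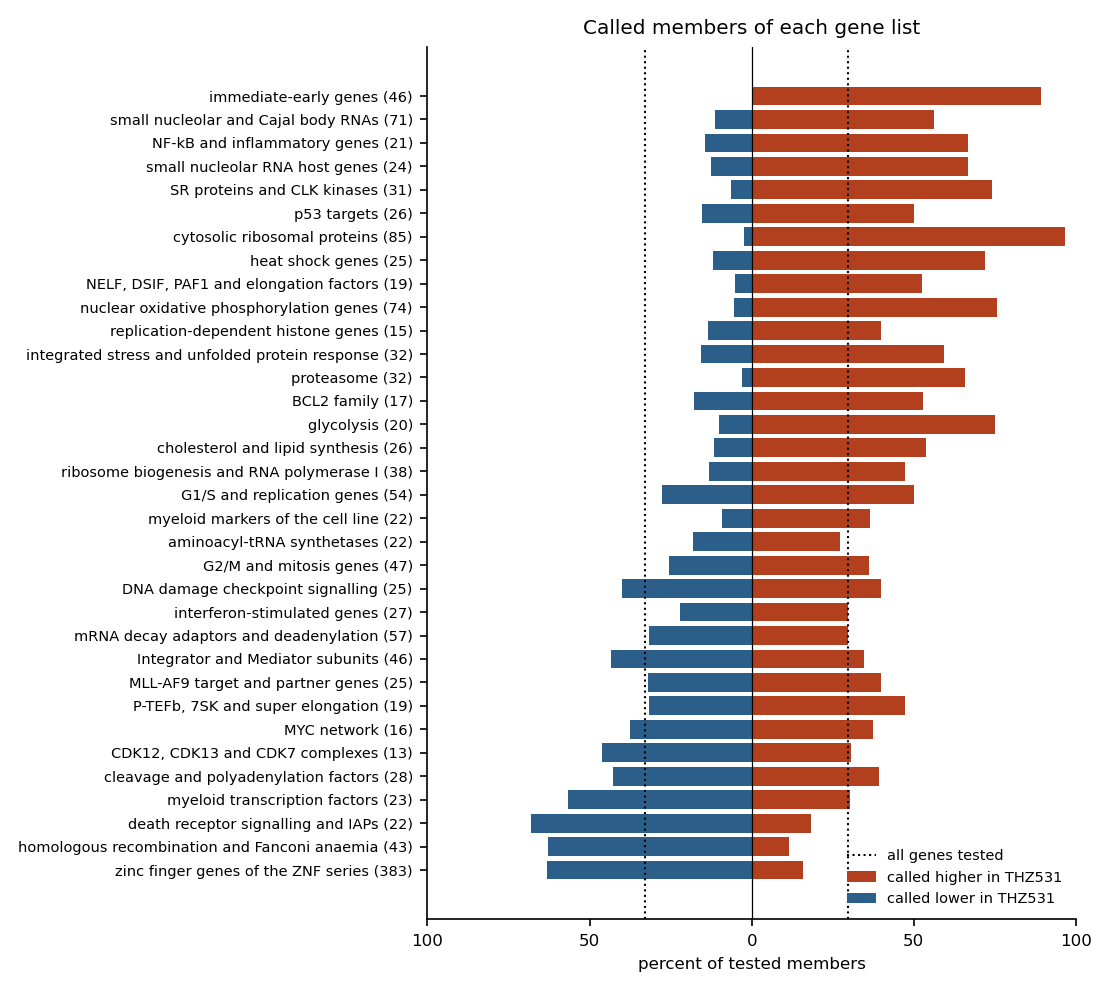
Percent of the tested members of each gene list that were called higher (red, to the right) or lower (blue, to the left) with THZ531, with the number tested in brackets and dotted lines at the shares over all genes (29.6% and 33.0%). Lists are ordered by their median, from zinc finger genes at the bottom (-0.81) to immediate-early genes at the top (1.79).

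Abundant housekeeping groups differed little but in 1 direction. Cytosolic ribosomal protein genes were higher in 82 of 85 cases and lower in 2 (RPL39L at -0.29 and RPL7L1 at -0.29), with a median of 0.34. RPL39L was not called without THZ531 replicate 1 (-0.23) or YKL5124 replicate 3 (-0.19). RPL5 was at 4532, 4660 and 4646 CPM against 3109, 3323 and 3268 CPM (log2 fold change 0.51, SE 0.05). Nuclear genes of oxidative phosphorylation had 56 of 74 higher and 4 lower (median 0.27), proteasome genes 21 of 32 and 1 (median 0.25). These medians are close to the shift between the scalings. With spike-in scaling the ribosomal list had 18 higher and 2 lower (median 0.10), oxidative phosphorylation 7 and 8 (median 0.03) and the proteasome 5 and 7 (median 0.01).

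Zinc finger genes of the ZNF series, a large family of DNA-binding repressors, were mostly lower. Of 510 in the table, 383 passed the filter, 242 were lower (171 at least 2-fold) and 61 higher, with a median of -0.81. ZNF526 was at 4.57, 5.84 and 4.96 CPM against 47.8, 44.7 and 38.9 CPM (8.45-fold lower) and ZNF557 at 2.84, 2.19 and 2.33 CPM against 27.0, 27.0 and 21.9 CPM (10.3-fold lower). ZNF503 went the other way, at 78.0, 80.1 and 82.6 CPM against 11.8, 12.2 and 13.2 CPM. Members of this family share sequence, and reads with several matches cannot be followed in these files.

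Among called protein-coding genes of at least 10 CPM in 1 group with groups that do not overlap, PPP1R10 was followed by KRCC1, CCDC30, PDE1B, SMIM8, HRH1, KCNJ14, C8orf44, PANK1, PAQR8, ARTN and ZNF714 in the size of the difference toward lower levels. PDE1B and C8orf44 were counted on an upstream row, and on the most downstream row they were at -1.49 and -2.01. With all rows summed CCDC30 was at -1.67 and SMIM8 at -0.87. KRCC1 had 0, 1 and 5 counts with THZ531 against 91, 120 and 144 with YKL5124, and the counting interval of that ratio runs from 23.7-fold to 143-fold. The other end of the ranking was LATS1, IER3, SIN3A, ARMH3, MVB12B, FANCA, MICAL3, ZC3HAV1, CSKMT, PLK2, FAM118A and PIM1. Of these 12, LATS1, SIN3A, ARMH3, MVB12B, FANCA, MICAL3, ZC3HAV1 and FAM118A were counted on a row that ends upstream of another row of the gene. All 8 changed sign on the most downstream row, to between -2.51 (MVB12B) and -0.10 (ARMH3). The last exon of C8orf44 overlaps SGK3 and that of CSKMT overlaps LBHD1. Across all genes, 774 of 14858 (5.21%) were counted on such an upstream row, 133 of 909 (14.6%) of those at least 2-fold higher and 71 of 2418 (2.94%) of those at least 2-fold lower.

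The ends of transcripts were therefore compared within genes. In 3921 genes a pair of rows could be placed at annotated last exons that do not overlap, 1 upstream and 1 downstream, a median of 17.0 kb apart. The files give no coordinates for rows, so placement rests on the annotation of the transcript that names the row. As a check, of 3152 groups of transcripts that share an annotated end, 2451 (77.8%) held totals within 2% of each other. The upstream row gained on the downstream row in 1549 genes (39.5%) with THZ531 and lost in 314 (8.01%), by the interaction of row and group in edgeR. The losses fell to 206 without THZ531 replicate 3 and to 184 with limma on log ratios. Over all pairs the median of the difference was 0.37. In the 1549 genes the upstream row was higher by a median of 1.08 and the downstream row lower, at -0.59. Both movements occurred in the same gene in 1021 of the 1549. Over all 3921 pairs the median share of the upstream row was 16.4% to 17.2% in the THZ531 libraries and 10.1% to 11% in the YKL5124 libraries. In the 1549 genes, which were selected for the gain, it was 31.3% to 32.8% against 10.2% to 10.4%.

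Distance went with the shift. Where the rows lay under 5 kb apart, the upstream row gained in 125 of 757 genes (16.5%) and lost in 101. At 5 to 20 kb it gained in 467 of 1378 (33.9%), at 20 to 100 kb in 710 of 1443 (49.2%) and at over 100 kb in 247 of 343 (72.0%), with 12 losses. The medians were -0.07, 0.19, 0.67 and 1.45.

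**Figure D4:**
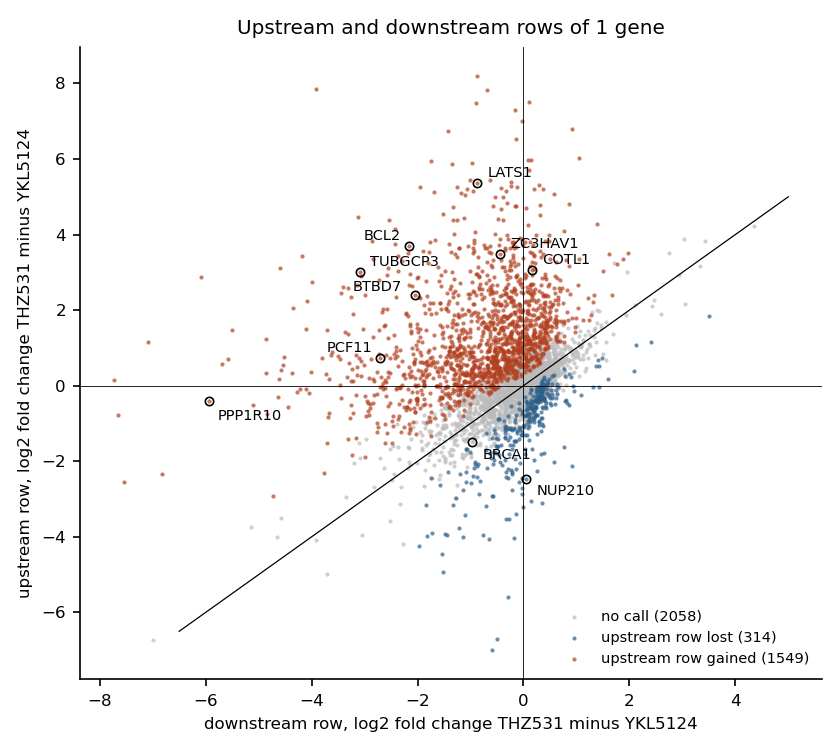
Each point is 1 of 3921 genes, with the log2 fold change (THZ531 minus YKL5124) of its downstream row on the x axis and of its upstream row on the y axis. On the diagonal both rows differ alike; red points above it (1549) had an upstream row that gained, blue points below it (314) one that lost, and grey points (2058) were not called.

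TUBGCP3, a subunit of the complex that nucleates microtubules, showed both movements. Its upstream row was at 20.0, 19.6 and 21.4 CPM with THZ531 and at 2.98, 2.40 and 2.32 CPM with YKL5124. Its downstream row, 61.5 kb on, was at 16.8, 18.2 and 17.6 CPM against 154, 150 and 146 CPM. The upstream row thus held 51.9% to 54.8% of the pair against 1.56% to 1.91%, a difference of 6.09 on the log2 scale (SE 0.17, adjusted p = 2.28e-43). BTBD7 was alike, at 46.1 to 50.1 against 6.62 to 12.2 CPM upstream and 38.0 to 42.8 against 161 to 167 CPM downstream. In COTL1, which encodes an actin-binding protein, the upstream row differed 8.38-fold, from 16.5, 19.2 and 20.7 CPM with YKL5124 to 158, 158 and 161 CPM with THZ531, while the downstream row stood at 714 to 784 and 800 to 854 CPM. ZC3HAV1, an antiviral zinc finger protein known to be made in a short and a long form, had 604, 644 and 676 CPM upstream against 55.0, 59.0 and 57.9 CPM, and 42.4 to 47.7 against 58.5 to 63.0 CPM downstream. MVB12B, of the endosomal sorting machinery, differed by 6.92 (SE 0.21). These are the 5 genes with the smallest adjusted p in that direction, and in each the upstream rows of the groups did not overlap.

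The last 30 bases of the transcripts, where the 2 ends differ, are shown for some of these genes and for LATS1, PCF11 and RUNX1. They come from GENCODE (GRCh38), read on the strand of the gene, and capitals mark AATAAA or ATTAAA, the usual polyadenylation signals, on that strand. The ends of ZC3HAV1 and MVB12B are not shown. Their upstream ends hold neither signal, whereas their downstream ends do hold a signal. Among the upstream ends shown, only that of BTBD7 holds neither, so the ends shown do not stand for the shares given below.
TUBGCP3 upstream end (chr13:112546482-112546511, minus strand): gtctAATAAAatcttgaatttttagcataa
TUBGCP3 downstream end (chr13:112485005-112485034, minus strand): aaaATTAAAagcaattatctttcagatgca
COTL1 upstream end (chr16:84616004-84616033, minus strand): ataAATAAAaagtacaaaattgtgccaggg
COTL1 downstream end (chr16:84565594-84565623, minus strand): ataaatgttttttttgtttttcagaaaaca
BTBD7 upstream end (chr14:93287672-93287701, minus strand): ccaaggaaagaggtgtctcggaagaaatca
BTBD7 downstream end (chr14:93237550-93237579, minus strand): tggcatttcaAATAAAtggcttgtatagaa
LATS1 upstream end (chr6:149682919-149682948, minus strand): aaaagtgAATAAAtATTAAAgtacttttga
LATS1 downstream end (chr6:149658153-149658182, minus strand): gggatAATAAAaaaaattcaaatctttcaa
PCF11 upstream end (chr11:83158850-83158879, plus strand): aaaatttgtgAATAAAacatataaaatatg
PCF11 downstream end (chr11:83187422-83187451, plus strand): gttgacctaagaacagctgagtatgggtgc
RUNX1 upstream end (chr21:34832961-34832990, minus strand): ggaaaatttccaAATAAAtctttccagaag
RUNX1 downstream end (chr21:34787801-34787830, minus strand): ataaacagtttgacaagtacatacaccata
Upstream ends held 1 of the 2 signals in 551 (35.6%) of the 1549 genes that gained, in 245 (11.9%) of the 2058 without a call and in 25 (7.96%) of the 314 that lost. Among downstream ends the shares were 66.5%, 65.8% and 64.6%. An end without either signal says only that these letters are not in this window, and some annotated transcripts are incomplete.

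Several genes named above for a lower level carried the shift. PCF11 had 15.2, 14.0 and 14.7 CPM on its upstream row with THZ531 against 7.87, 9.06 and 9.43 CPM, so the upstream share was 72.0% to 81.0% against 20.2% to 26.8%. RUNX1 had 11.3 to 13.1 against 6.04 to 7.31 CPM upstream, a share of 69.1% to 70.2% against 8.54% to 10.1%. BCL2, over 190 kb between its rows, had 10.6, 12.5 and 11.7 CPM against 0.477, 0.647 and 1.41 CPM upstream. CFLAR had 5.69 to 10.0 against 0.835 to 3.22 CPM upstream, with a difference of 4.23 (SE 0.32) between its rows. CSTF3 stood at 16.6, 19.4 and 22.5 CPM against 15.3, 16 and 16.5 CPM upstream, so its difference of 4.02 (SE 0.17) lay mostly in the downstream row. LATS1, a kinase of the Hippo pathway, was instead named above for a higher level, on an upstream row. It had 11.7 to 15.4 against 0.277 to 0.358 CPM upstream and 2.97 to 4.07 against 6.04 to 7.31 CPM downstream. PPP1R10 was at 2.03 to 2.35 against 2.22 to 4.18 CPM upstream, so its difference lay mostly in the downstream row. At a minimum count of 50 another pair of its rows was compared and did not pass (0.16).

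For some named genes no shift was called. BRCA1 (difference -0.53, SE 0.48), CDK13 (-0.03, SE 0.27), ATM (-0.07, SE 0.33) and CCNK (-0.13, SE 0.21) did not pass. Their upstream counts were few, so these values do not show that the rows moved alike. The difference of CDK12, 6.98 (SE 0.47), is between a pair of retained-intron transcripts at 5.74 against 2.02 CPM and 0.171 against 8.63 CPM, neither of them the row used for its level. Of 23 homologous recombination and Fanconi anaemia genes with a pair, the upstream row gained in 11 and lost in 0 (over all pairs it gained in 39.5%), FANCA and BARD1 with the smallest adjusted p. In BARD1 the upstream share was 64.5% to 66.2% against 30.4% to 33.6%. Zinc finger genes gained in 46 of 80 and lost in 3. Ribosomal protein genes, by contrast in count, gained in 5 of 59 and lost in 20.

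Losses of the upstream row were smaller and fewer. NUP210, a nuclear pore gene, was at 4.70, 4.59 and 3.54 CPM upstream with THZ531 against 20.9, 26.1 and 23.1 CPM, with 154 to 167 and 152 to 157 CPM downstream. MPV17 and ORAI3, with rows 1.58 and 1.52 kb apart, differed by -3.21 (SE 0.29) and -2.46 (SE 0.23). SPG7 (-3.19, SE 0.25) and SYMPK (-1.52, SE 0.14) complete the 5 with the smallest adjusted p. In 3 of the 5 (NUP210, MPV17 and SYMPK) the upstream row is a retained-intron transcript. SPG7 and SYMPK turned to 0.57 and 1.93 when only protein-coding transcripts were paired.

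Long genes were lower with THZ531 than short ones. Of 2163 protein-coding genes that span under 10 kb, 837 were higher and 511 lower, with a median of 0.11. Of 706 that span over 200 kb, 93 were higher and 394 lower (55.8%), with a median of -0.48. The classes between them lay in order, at 0.02 for 10 to 50 kb, -0.15 for 50 to 100 kb and -0.27 for 100 to 200 kb. The interquartile ranges of all classes overlap, and Spearman's rho across 11264 genes that share the same libraries was -0.20. Within each library, the median log2 CPM of genes over 100 kb minus that of genes under 10 kb was -1.003, -0.993 and -0.965 with THZ531 and -0.594, -0.636 and -0.673 with YKL5124. The values did not overlap and the means differed by -0.35 (exact two-sided permutation test, p = 0.1, the smallest that 3 against 3 libraries allow). The level of a gene goes with the same difference. Of protein-coding genes with a mean under 10 CPM, 595 of 4119 were higher and 1737 lower, and of those at 10 CPM or more, 2824 of 7145 were higher and 2197 lower. Among the latter, genes over 200 kb had a median of -0.31 (56 of 336 higher, 191 lower) and genes under 10 kb one of 0.17 (695 of 1395 higher, 269 lower).

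**Figure D5:**
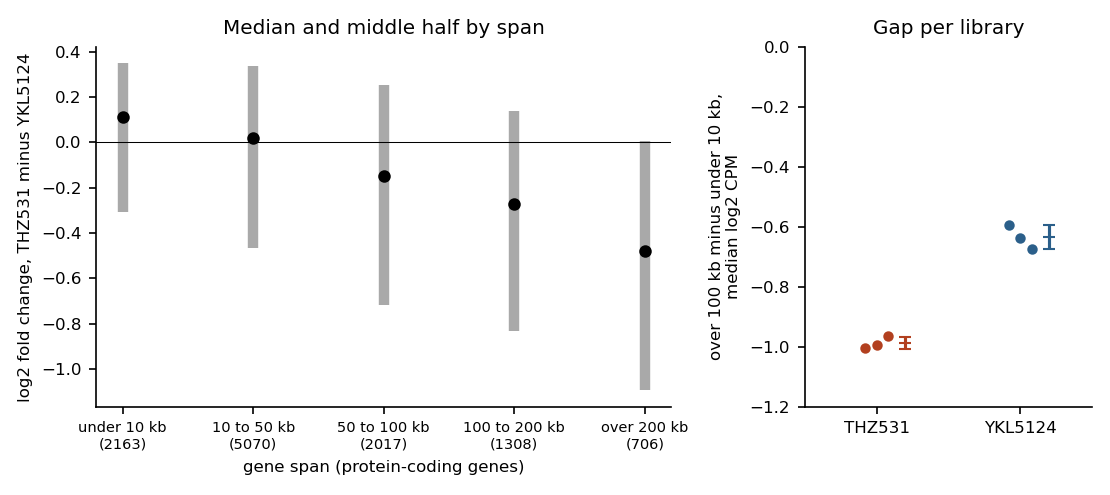
Left, the median (dot) and interquartile range (bar) of the log2 fold change, THZ531 minus YKL5124, for protein-coding genes in 5 classes of span, with the number of genes in brackets. Right, the median log2 CPM of genes over 100 kb minus that of genes under 10 kb in each library, with mean and SD (n = 3), which is lower in all 3 THZ531 libraries (-0.99 ± 0.02 against -0.63 ± 0.04).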

How the data were processed

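Total 3′ end counts of 6 libraries were used, 3 of THZ531 and 3 of YKL5124. Raw counts, as deposited by the authors, are whole numbers for 256726 human and 38374 fly rows (295100 in all). Among the tools in the submitters' processing notes are edgeR 3.32.1, Trim Galore 0.6.5 and bcl2fastq 2.17.1.14. The aligner, counter, annotation and strand were not given in the sources used. In the same table, 3 columns of the series match no label and were not used.

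GENCODE v29 (GRCh38) named 251529 human rows. The 5197 others held 0.655% to 0.711% of a library's human counts and were left out. Rows of 1 gene overlap (their sum is 3.32 to 3.41 times 1 row per gene), so each gene was counted on the row with the highest total, and 96 genes with counts identical to another gene were dropped. High counts in a single group can decide this choice. In 1914 tested genes the last exon overlaps another tested gene on either strand, and not every such gene is marked above. edgeR 4.0.16 (R 4.3.3) was fitted to the 6 libraries with filterByExpr (minimum count 10), TMM scaling and the quasi-likelihood test, with Benjamini-Hochberg adjustment over 14858 genes. SE was taken as the size of the log2 fold change over the square root of F. CPM are TMM-scaled. Levels are 3′ counts and are not compared between genes.

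On data simulated for this comparison (14447 genes), the test found 63.3% of 1.5-fold, 88.6% of 2-fold and 100% of 4-fold changes, and 5.26% of its calls were genes left as they were. The row test was run on 3921 simulated pairs, all given the same spread between replicates and only a small part of them shifted. It called 99.5% of 4-fold shifts, with 4.78% of its calls in pairs without one. These rates describe the simulated data only. In the libraries themselves 62.6% of genes were called, with 2418 at least 2-fold lower and 909 at least 2-fold higher. Whether the rates hold there was not tested.

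Genes named were 24 preset genes, the 12 largest called differences each way among protein-coding genes with at least 10 CPM in 1 group and replicates that do not overlap, 3 members a list each way by adjusted p, and 5 row pairs each way. Row pairs of genes already named, and list members given as not called, were chosen after their values were seen. The comparison, the members and the lists were chosen with earlier results of these data known. Within groups, counts differed by a chi-square per gene of 1.74 to 4.05, and all 6 libraries were kept as separate. DESeq2 1.42.0 and limma 3.58.1 were used in alternatives. Some items are not reported here.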

Additional observations from a re-analysis of the deposited data

How the results depend on the processing

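Counting error alone is small at these depths, and genes at a few CPM are limited by their counts. Counts of 4400 higher and 4901 lower genes became 4052 and 4210 with DESeq2 and 4489 and 4945 with a replicate block. Correlations of the deviations of same-numbered libraries were 0.143, -0.005 and 0.036, and those of different-numbered libraries ran from -0.116 to 0.102. With so few libraries these values cannot settle whether the replicate numbers pair them. The block gave 1560 genes whose upstream row gained in THZ531 and 320 genes whose upstream row lost in THZ531, in place of 1549 and 314. Fewer genes were called higher with library size alone (2490) and with spike-in scaling (2118). A test against 1.5-fold, which asks for more, called 1092 higher and 2572 lower. With a minimum count of 50, which tests 10645 genes, there were 481 genes at least 2-fold higher in THZ531 and 1374 genes at least 2-fold lower in THZ531, and protein-coding genes alone gave 582 of the former. Leaving out 1 library at a time gave 4119 to 4322 higher and 4705 to 4870 lower genes. The 1863 genes with a shift between upstream and downstream rows became 933 of 1707 (740 gains, 193 losses) at a minimum count of 50, 814 of 1374 (743 and 71) with protein-coding transcripts alone and 734 of 1073 (691 and 43) with a signal at both ends, each of which pairs fewer genes. With limma there were 184 losses, and 206 to 348 when 1 library was left out. For these the cause was not tested. The difference in the log2 human to fly count ratio ranged from -0.059 to 0.0018 without 1 library, turning sign without YKL5124 replicate 3. The gap between long and short genes was -0.52 at 200 kb against 20 kb and -0.49 for genes of at least 10 CPM.

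By construction, the most downstream row and the fit of 9 inhibitor libraries can count another row. With the first, signs turned for ARMH3 (-0.10), BIRC6 (-0.62), CCNH (-0.86), CD33 (-0.63), FAM118A (-0.37), FANCA (-0.91), H2BC15 (-1.85), INTS10 (-0.28), IRF9 (-0.35), KMT2A (-1.82), LATS1 (-0.84), MICAL3 (-2.15), MVB12B (-2.51), PSMB5 (0.58), RAD51C (-0.74), RFC3 (-1.50), SIN3A (-0.57), TFDP1 (-0.025), ZC3HAV1 (-0.41) and ZEB2 (-1.97). With the second they turned for ARMH3 (-0.10), LATS1 (-0.84) and MVB12B (-2.50), and with rows summed per gene for ACACA (0.051), FANCM (-0.26), MED13 (0.0081), MVB12B (-0.24) and RAD51C (-0.10). With protein-coding transcripts alone the row shifts of SPG7 (0.57) and SYMPK (1.93) turned. A fit of all 12 libraries was planned and not run, since 3 columns match no label. The fit of 9 libraries, the most downstream row, limma, protein-coding transcripts and the signal at both ends were chosen after seeing the data.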

Other observations

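Non-coding RNAs differed by class. Of 412 tested lincRNAs, 209 were lower with THZ531 and 87 higher (median -0.64), and of 445 antisense RNAs 254 were lower and 67 higher (median -0.81). Antisense genes share sequence with genes on the other strand, and the strand used in counting is not given. Small nucleolar RNAs, guides of rRNA modification that lie in introns of host genes, were higher in 40 of 71 tested cases and lower in 8 (median 1.26). Those 71 are the members that passed the filter on low counts, of 541 small nucleolar and Cajal body RNAs in the table. Members with counts only where they are high pass through that group, so the count describes these 71 and not the class. SNORD84 was at 62.6, 66.5 and 66.0 CPM with THZ531 against 1.43, 2.59 and 2.48 CPM with YKL5124, but it lies in DDX39B, and reads of the host cannot be told apart from it. Host genes of small nucleolar RNAs (the SNHG series) were higher in 16 of 24 cases and lower in 3, with SNHG1 at 2.60 (SE 0.07) and SNHG12 at 2.74 (SE 0.14).

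Cell cycle lists included both higher and lower genes. Of 54 tested G1/S and replication genes, 27 were higher and 15 lower (median 0.17; 16 and 22 with spike-in scaling), among them GINS3 (1.47, SE 0.10) and RBL1 (-2.07, SE 0.10), a relative of the retinoblastoma protein. TFDP1, the partner of E2F factors, was at 2.13 on its chosen row and at -0.025 on the most downstream row. Of 47 G2/M and mitosis genes, 17 (36.2%) were higher and 12 (25.5%) lower, against 29.6% and 33.0% over all genes. With spike-in scaling 12 were higher and 24 lower. UBE2C (0.92, SE 0.06) and CDK1 (0.65, SE 0.06) were among the higher and KIF14 (-1.06, SE 0.09) among the lower. Of 57 factors of mRNA decay, 17 were higher and 18 lower, shares close to those over all genes (29.6% and 33.0%), and with spike-in scaling 11 were higher and 31 lower. The adaptors BTG1 (2.13, SE 0.06) and ZFP36L2 (1.49, SE 0.06) were higher and the decay factors RC3H2 (-2.42, SE 0.12) and SMG9 (-1.63, SE 0.15) lower. Interferon-stimulated genes had 8 of 27 (29.6%) higher and 6 (22.2%) lower, against 29.6% and 33.0% over all genes. With spike-in scaling 4 of them were higher and 9 lower. Cholesterol and lipid synthesis had 14 of 26 higher and 3 lower (8 and 8 with spike-in scaling).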
